A study of Caenorhabditis elegans with 9 samples.

Results

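The Hox genes of Caenorhabditis elegans are the 6 genes lin-39, ceh-13, mab-5, egl-5, nob-1 and php-3. Their open chromatin was taken as every noncoding DNase I hypersensitive site (DHS) that the authors' gene tables assign to one of them. This gave 23 of the 16084 entries of the L1 arrest table, 38 of the 26644 entries of the embryo table and 2 of the 1835 entries of the table of L1 arrest-associated sites. No entry was assigned to a second gene. The 38 embryo entries came from 37 peaks, because an exon splits 1 egl-5 peak into a pair of entries.

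The study mapped open chromatin by DNase-seq, in which DNase I cuts accessible DNA of isolated nuclei and the freed ends are sequenced. Larvae held in L1 arrest, newly hatched animals kept without food, gave 5 replicates, and embryos of around 40 cells gave 4 replicates. All animals were wild type of strain N2, and both groups were whole animals, so nuclei of all cell types were mixed. The lists used here hold 1 merged value per stage, so there is no value per replicate, the read depth behind a site is unknown, and no difference between the stages could be set against the spread between replicates.

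Hox genes encode homeodomain transcription factors that give cells their regional identity along the anterior to posterior axis. In most animals they lie in clusters and are switched on in blocks along the body, under the control of enhancers, signals such as Wnt, and chromatin regulators of the Polycomb and Trithorax groups. In C. elegans they are arranged as 3 pairs on chromosome III. The anterior gene ceh-13 is the labial homologue and lin-39 acts in the mid-body, including the vulval precursor cells. The gene mab-5 acts in the posterior body and in the migration of a Q neuroblast, and egl-5 acts in the tail. The genes nob-1 and php-3 are paralogues of the Abdominal-B class that act at the posterior end.

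As a check of the stage labels, noncoding DHS were counted at genes fixed as stage markers. Of 8 early embryonic specification factors, 2 had a DHS in the L1 list and 3 in the embryo list, against 38.9% and 52.4% of all coding genes. Of 6 genes of differentiated cells, 5 had one in each list. By number, 1 of the 6 had more in L1, 2 had fewer and 3 had equal numbers. The gene with more was act-5, an intestinal actin, at 10 in L1 and 8 in the embryo. Those with fewer were myo-3, at 1 in L1 and 3 in the embryo, and unc-54, at 2 in L1 and 3 in the embryo. The markers therefore did not separate the stages in these lists, and a DHS is not a measure of expression.

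Of the 6 genes, 5 had more DHS than the median gene in both stages, and php-3 had fewer. The median was 3.5 DHS per Hox gene in L1 and 5.5 in the embryo, against medians of 1 in L1 and 2 in the embryo over the 10821 protein-coding genes with a DHS in either list. In whole animals, a site open in fewer cells and a site less open in each cell cannot be told apart. A DHS was present in L1 for 5 of the 6 genes (38.9% of the 19971 coding genes had one) and in the embryo for all 6 genes (52.4% of coding genes). The split between stages was like that of all genes: L1 entries made up 37.7% of the L1 and embryo entries together for the Hox genes and 37.5% over all coding genes. Fewer DHS in L1 than in the embryo were listed for 5 genes (60.8% of coding genes with a DHS), and more in L1 for nob-1 alone among the 6 (7.13%). When the embryo list was cut, by score, to as many entries as L1 has, 4 of the 6 genes had fewer in L1, mab-5 had 4 in each list and nob-1 still had more in L1. In that shorter list 26.7% of coding genes with a DHS had fewer in L1 and 25.5% had more. Among entries of at least 150 bp, or at or above the median score, php-3 had none in either list, and 4 of the 5 other genes had fewer in L1. Of coding genes with such a DHS, 53.7% (at least 150 bp) and 56.5% (at or above the median score) had fewer in L1.

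**Figure D1:**
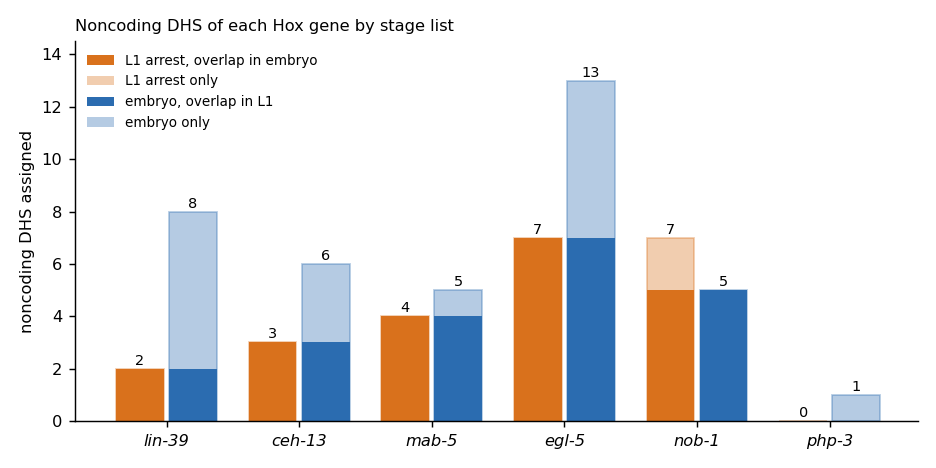
Number of noncoding DHS (vertical axis, count) assigned to each Hox gene, with the L1 arrest list left of the embryo list; each bar is 1 merged list and has no error bar, and the pale part of a bar counts sites without an overlap in the other stage. The gene egl-5 had the most DHS in the embryo, 13, and shared the highest L1 number, 7, with nob-1.

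**Figure D2:**
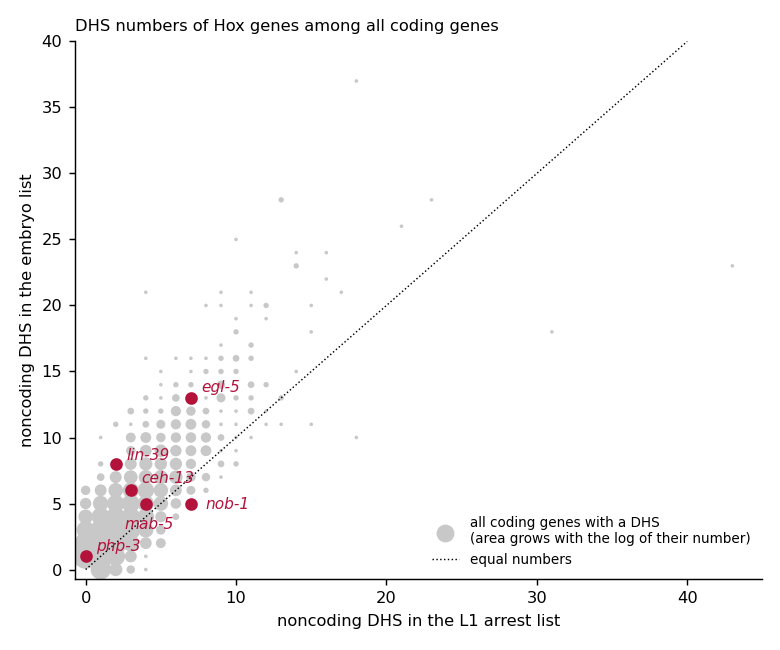
Noncoding DHS per protein-coding gene in the L1 arrest list (horizontal axis, count) and in the embryo list (vertical axis, count); grey points are all coding genes with a DHS, their area growing with the log of the number of genes at that point, red points are the Hox genes and the dotted line marks equal numbers. Of the 6 genes, nob-1 lies on the L1 side of the line, with 7 DHS in L1 and 5 in the embryo.

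The pair lin-39 and ceh-13 had 5 DHS in L1 and 14 in the embryo. Known enhancers of this pair guided which DNase I level was sequenced for each sample, per the series design text, so these 2 genes were not independent of how the libraries were chosen. The gene lin-39 had 2 DHS in L1 and 8 in the embryo. At least as many were listed for 17.5% of coding genes in L1 and for 2.02% in the embryo. The large embryo number of lin-39 was made mostly of low-scoring sites: the median percentile of their deposited scores was 26.7. A percentile here is the share of a stage's noncoding list with a score at or below that of the site. Scores are the authors' own and rank sites within 1 list only.

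Of the 5 lin-39 embryo sites in introns, 4 had no L1 counterpart, from III:7530781-7530930 to III:7533121-7533270 in ce10, with percentiles of 4.83 to 52.2. The remaining one, at III:7535421-7535570, was listed in both stages at the same start and end. It had a score of 218 in L1 (percentile 52.0) and 209.7 in the embryo (59.1). The other shared site lay outside the gene, 1469 bp from it at III:7538101-7538250, with a score of 184 in L1 (percentile 30.8) and 149 in the embryo (26.7). The embryo alone had a site 9 bp from the gene edge (III:7536641-7536790, percentile 48.3) and one 3689 bp away (percentile 10.4), neither of which held a footprint. A footprint is a short stretch inside a DHS with few cuts, called by the authors.

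The gene ceh-13 had 3 DHS in L1 and 6 in the embryo, and all 3 in L1 were shared. Its highest-scoring site lay 3891 bp from the gene at III:7551621-7551770, with identical ends in both stages. The score there was 497 in L1 (percentile 91.3) and 375 in the embryo (86.0), and both lists had 2 merged footprints in it. A shared site 1633 bp away, at III:7559841-7559990, was weak in both lists, with percentile 26.1 in L1 and 7.28 in the embryo. Another shared site had percentile 59.5 in L1 (III:7553101-7553250, 2411 bp from the gene) and 78.0 in the embryo (III:7553141-7553290, 2371 bp). The 3 embryo-only sites of ceh-13 lay 811 bp away (percentile 66.7), in an intron (21.8) and 513 bp away (55.7). The site at 811 bp had the highest percentile of the 17 Hox sites listed in the embryo alone.

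The gene mab-5 had 4 DHS in L1 and 5 in the embryo. Of these, 4 were shared, and the embryo-only site in an intron (III:7778621-7778770) stood at percentile 0.124, near the bottom of the embryo list. The highest-scoring site in the embryo lay outside the gene. There the score was 338 in L1 (III:7784341-7784490, 887 bp from the gene, percentile 81.5) and 889.6 in the embryo (III:7784361-7784510, 907 bp, percentile 96.1), with 5 merged footprints in each. In L1 an intronic site scored higher, with 366 (III:7779481-7779630, percentile 84.4), against 298 in the embryo (III:7779461-7779610, percentile 78.8). The site that ranked highest for mab-5 thus was not the same in the 2 lists. The other intronic site, III:7780441-7780590, had percentile 27.1 in L1 and 54.02 in the embryo. A site 3247 bp from the gene at III:7786701-7786850 had percentile 67.8 in L1 and 84.7 in the embryo.

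The gene egl-5 had 7 DHS in L1 and 13 in the embryo, the most of the 6 genes in the embryo. At least as many were listed for 0.996% of coding genes in L1 and for 0.446% in the embryo. All 7 L1 sites lay outside the gene and were shared. The site with the highest score of all 6 genes in both lists lay 1913 bp from egl-5 by its L1 entry and 1933 bp by its embryo entry. Its score was 2067 in L1 (III:7812321-7812470, percentile 98.9) and 2704 in the embryo (III:7812301-7812450, percentile 99.4), which ranked it 185 of 16084 in L1 and 169 of 26644 in the embryo. The next highest egl-5 score was 310 in L1, at III:7808261-7808410, and 355 in the embryo, at III:7809041-7809190. One site thus stood far above the rest of the locus in both lists.

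The other shared egl-5 sites had lower percentiles in the L1 list than in the embryo list, which was the more common direction: of the shared DHS of all genes, 17.6% stood higher in L1. The farthest, at 7793 bp in L1 and 7773 bp in the embryo, had percentile 35.5 in L1 (III:7806441-7806590) and 77.2 in the embryo (III:7806461-7806610). The site at 3213 bp in L1 and 3193 bp in the embryo had percentile 10.8 in L1 (III:7811021-7811170), the lowest of all Hox sites in L1, and 55.8 in the embryo (III:7811041-7811190). A site 374 bp away at III:7817501-7817650 had percentile 42.6 in L1 and 70.8 in the embryo. The smallest of these gaps was at III:7808261-7808410, 5973 bp away in L1, with percentile 77.8 in L1 and 80.0 in the embryo. Ranked only among shared DHS, that site turned round and stood 11.3 points higher in L1. The 6 egl-5 entries listed in the embryo alone comprised 3 in introns, 1 at 13 bp from the gene edge and 2 at 4013 and 6553 bp. Their percentiles ran from 5.98 to 65.4.

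**Figure D3:**
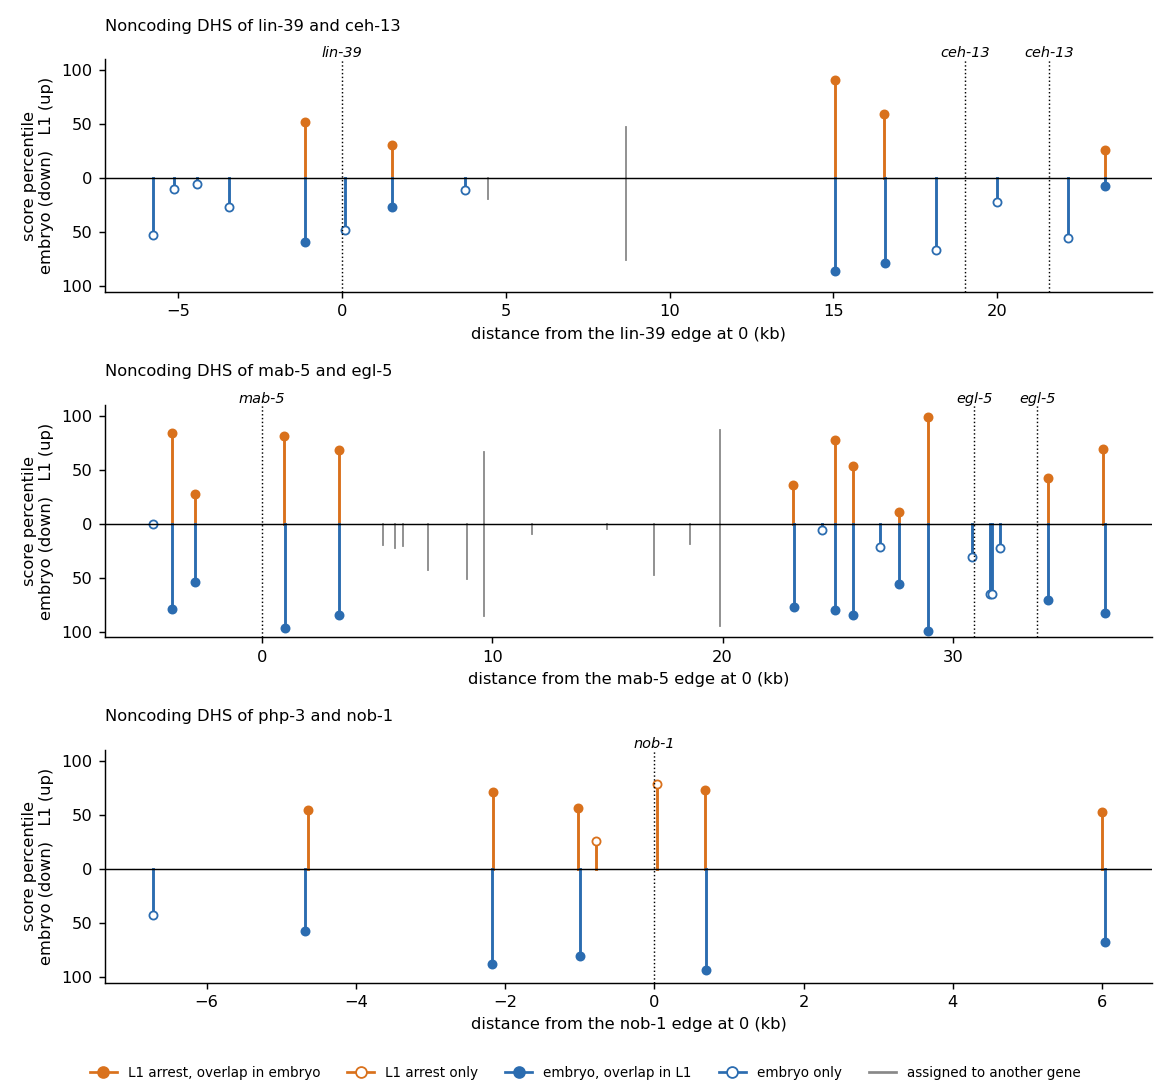
Noncoding DHS of the 3 Hox gene pairs by distance (kb) along chromosome III, with L1 arrest above and embryo below the line in each panel; the length of each line is the percentile of the deposited score within the stage list, filled points overlap a site of the other stage, open points do not, dotted lines mark gene edges implied by the deposited distances, and grey marks DHS of the pair's span that are assigned to other genes. The site 1913 bp from egl-5 in L1 reaches percentile 98.9 in L1 and 99.4 in the embryo, and in the php-3 and nob-1 panel 2 nob-1 sites stand on the L1 side alone.

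The gene nob-1 had 7 DHS in L1 and 5 in the embryo, the reverse of the order at the other 5 genes. All 5 embryo sites were shared. The remaining 2 L1 sites were the only Hox entries among the arrest-associated DHS, which is 2 of 23 Hox entries in L1 (8.70%, exact 95% binomial interval 1.07 to 28.0%, counting error only), while 11.4% of all L1 noncoding DHS were arrest-associated. The first lay in an intron at III:12083461-12083610, with a score of 178 (percentile 25.8) and 4 merged footprints, and 70 bp separated it from the nearest embryo DHS. The second, III:12084321-12084390, adjoined the edge of the gene, was 70 bp wide after removal of its exonic part and had a score of 316 (percentile 78.6) and no footprint. The nearest embryo noncoding DHS was 550 bp away. Neither overlapped an embryo DHS of any kind, exonic ones included.

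The nob-1 site with the highest score in the embryo lay 601 bp from the gene in L1 and 621 bp in the embryo. Its score was 286 in L1 (III:12084921-12085070, percentile 73.6) and 584 in the embryo (III:12084941-12085090, percentile 93.1). The 3 shared intronic sites had percentiles of 54.5, 70.9 and 56.2 in L1, against 57.5, 87.5 and 80.0 in the embryo. The farthest site, at 5921 bp in L1 and 5961 bp in the embryo, had percentile 53.3 in L1 and 67.7 in the embryo. By this measure none of the 5 shared nob-1 sites stood higher in L1 than in the embryo. This too was the more common direction over all genes.

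The gene php-3 had no assigned noncoding DHS in L1 and 1 in the embryo. The embryo entry adjoined the gene edge at III:12077557-12077630, was 74 bp wide and had a score of 173 (percentile 42.9) with 1 merged footprint. The absence of an L1 entry says only that no noncoding site passed the authors' calls there. An exonic site whose nearest Hox DHS was this one was called in both stages, with a score of 169 in L1 (III:12077161-12077310) and 197 in the embryo (III:12077141-12077290). The files name no gene for exonic sites. Whether sites counted for nob-1 act on its paralogue php-3 was not tested.

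Sites of the Hox genes were shared between the stages about as often as those of all genes. An embryo noncoding DHS overlapped 21 of the 23 Hox entries in L1 by at least 1 bp (91.3%, exact 95% binomial interval 72.0 to 98.9%), against 88.6% of the whole L1 list. An L1 noncoding DHS overlapped 21 of the 38 Hox entries in the embryo (55.3%, 38.3 to 71.4%), against 53.5% of the whole embryo list. The share differed between gene groups within the embryo: it was 5 of 14 for lin-39 and ceh-13 (35.7%) and 16 of 24 for mab-5, egl-5, nob-1 and php-3 (66.7%). In L1 all 5 sites of lin-39 and ceh-13 and 16 of 18 sites of the other genes (88.9%) were shared. These are counts of neighbouring sites in 1 list per stage, and the difference between the groups was not tested.

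The sites split by where they lie. Of the Hox entries outside genes and at least 300 bp from one, 15 of 15 in L1 (90% over the whole list) and 15 of 20 in the embryo (75.0%, against 60%) were shared. Of those in introns, 6 of 7 in L1 (86.1% over the whole list) and 6 of 15 in the embryo (40.0%, against 47.9%) were shared. None of the entries within 300 bp of a gene edge was shared, which were 1 in L1 (90.8% over the whole list) and 3 in the embryo (53.6%). These 4 edge sites belong to lin-39, egl-5, php-3 and nob-1. Distal sites made up 65.2% of the Hox entries in L1 (40.8% of the whole list) and 52.6% of those in the embryo (37%). Intronic sites made up 30.4% in L1 (40.4%) and 39.5% in the embryo (43.8%), and edge sites 4.35% in L1 (18.8%) and 7.89% in the embryo (19.2%).

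Sharing followed the score in the embryo list. Of the embryo Hox entries in the lowest quintile of the list by score, 1 of 6 had an L1 counterpart (12.7% over the whole list). In the next quintiles the numbers were 1 of 6 (26.1%), 4 of 8 (52.3%) and 6 of 9 (82.6%), and all 9 entries in the highest quintile were shared (93.7%). In L1 the share varied less, with 1 of 1 in the lowest quintile (81.2%), then 4 of 5 (86.2%), 7 of 7 (88.5%) and 5 of 6 (92.3%), and 4 of 4 in the highest (94.8%). The median percentile was 78.8 for shared embryo Hox sites and 26.7 for those listed in the embryo alone, close to the 71.0 of shared and the 27.3 of embryo-only sites over the whole list. Most Hox sites missing from L1 were thus low in the embryo list, as in the list at large. The whole L1 list was also shorter, and with the embryo list cut by score to the L1 number, 19 of 23 Hox entries in L1 were shared (82.6%, against 76% of the whole L1 list). Of the 26 Hox entries left in that embryo list, 19 were shared (73.1%, against 76%). The part of read depth was not tested.

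Over all 6 genes, scores stood somewhat above the middle of their lists. The median percentile was 56.2 in L1, with 16 of 23 entries above 50, and 58.3 in the embryo, with 24 of 38 above 50. The range was 10.8 to 98.9 in L1 and 0.124 to 99.4 in the embryo. Scores ran from 163 to 2067 in L1 and from 123 to 2704 in the embryo.

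Because the embryo list holds many weak sites without an L1 counterpart, shared sites were also ranked only among the shared DHS of their own list. These numbered 14249 in L1 and 14247 in the embryo and formed 14256 overlapping pairs. By that measure 8 of the 21 shared Hox sites ranked higher in L1 than in the embryo (38.1%, against 45.1% of all shared pairs), and the median difference, L1 minus embryo, was -2.26 percentile points against -1.19 over all pairs. The genes differed from one another. Both lin-39 sites and 2 of 3 ceh-13 sites ranked higher in L1, with a median difference of 16.9 points over these 5 sites. Of the sites of the more posterior genes, 1 of 4 at mab-5, 1 of 7 at egl-5 and 2 of 5 at nob-1 ranked higher in L1, with a median of -8.10 points over the 16 sites.

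The largest differences towards L1 were 22.8 points at the ceh-13 site at 1633 bp, 21.4 at the lin-39 site at 1469 bp and 21.3 at the nob-1 intronic site III:12079601-12079750. In the embryo these ceh-13 and lin-39 sites stood at percentiles 1.37 and 7.28 among shared DHS. So near the bottom, a site has little room to rank lower in L1. The largest towards the embryo was -26.9 points at the egl-5 site at 7793 bp, followed by -22.1 at the egl-5 site 5193 bp away. The strongest egl-5 site differed by -0.084 points. The difference between lin-39 and ceh-13 on one side and the other genes on the other was seen after the sites were ranked, and it was not tested.

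**Figure D4:**
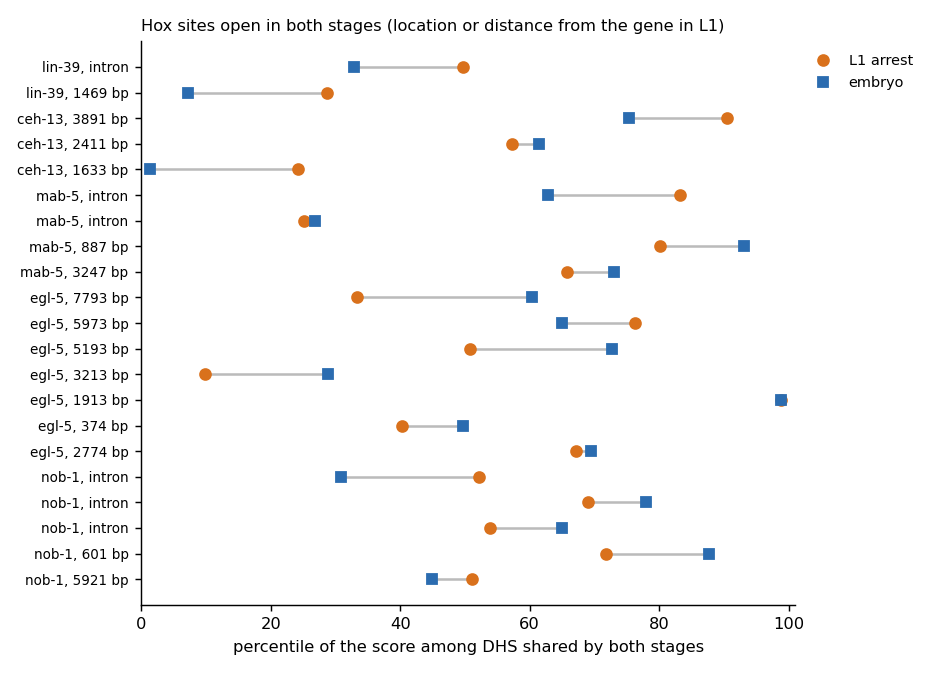
Rank of each of the 21 shared Hox sites among the DHS shared by both stages, as a percentile of the deposited score (horizontal axis); points give the L1 arrest and the embryo value of 1 site, joined by a line. All but 1 of the 5 lin-39 and ceh-13 sites rank higher in L1, and all but 4 of the 16 sites of the other genes rank higher in the embryo; at the strongest egl-5 site the points coincide.

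Footprints were present in 22 of the 23 Hox entries in L1 (95.7%, 78.1 to 99.9%), against 84% of the whole L1 list. In the embryo 34 of 38 held one (89.5%, 75.2 to 97.1%), against 82% of the whole list. In L1, 22 of the 23 Hox entries were at least 150 bp wide (79.4% of the whole list), and in the embryo 35 of 38 (72.9%), so width moved with this share, and its part in it was not tested. After footprints that overlap or adjoin were merged, the Hox entries held 61 footprints in L1, or 2.65 per DHS (2.03 in the whole list), and 87 in the embryo, or 2.29 per DHS (2.10). The gene mab-5 had 13 merged footprints in 4 DHS in L1 and 17 in 5 DHS in the embryo. Numbers for egl-5 were 17 in L1 and 30 in the embryo, and nob-1 had 18 in each list. The gene lin-39 had 4 in L1 and 10 in the embryo, and ceh-13 had 9 in L1 and 11 in the embryo.

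Where a site was shared, the footprints covered partly the same bases. Of the bases covered in either stage, a median of 50.0% were covered in both over the 21 shared Hox sites, with a range of 5.45 to 89.3%. The median over 11713 shared pairs with footprints in the whole lists was 42.1%, with an interquartile range of 22.7 to 59.6%. Shared Hox sites also held more footprinted bases than all shared DHS, those without footprints included. The medians were 69 against 48 in L1 and 71 against 58 in the embryo, and their part in the overlap was not tested. The ceh-13 site at 3891 bp had the highest overlap, 89.3%. In L1 its footprints spanned III:7551637-7551664 and III:7551674-7551738, and in the embryo III:7551638-7551664 and III:7551671-7551745. Both stages thus had 2 merged footprints at nearly the same positions, with ends that differed by 1 to 7 bp or not at all. Merging joins neighbouring calls into longer stretches. These stretches covered 93 bases in L1 and 102 in the embryo of 150 bp, so many bases must coincide wherever they lie.

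High overlap was also found at the egl-5 site at 374 bp (83.9%), the mab-5 intronic site III:7780441-7780590 (77.2%) and the strongest egl-5 site (76.5%). At the strongest egl-5 site footprints covered 105 bases in L1 and 98 in the embryo of the 130 bp common to both entries. Footprints of that extent must overlap in many bases wherever they lie. At the strongest egl-5 site the L1 list had 3 merged footprints and the embryo list 6. The lowest footprint score at that site was -11.2 in L1, at III:7812389-7812440, and -8.95 in the embryo, at III:7812373-7812415. Scores of footprints are the authors' own and are not comparable between lists. The lowest overlap, 5.45%, was at the egl-5 site at 2774 bp in L1, whose L1 and embryo entries are offset by 80 bp, the largest offset of the 21 sites, and where the embryo list had 1 footprint of 6 bp against 5 in L1. Of the 21 sites, 8 had the same start and end in both lists, and the median offset was 20 bp.

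**Figure D5:**
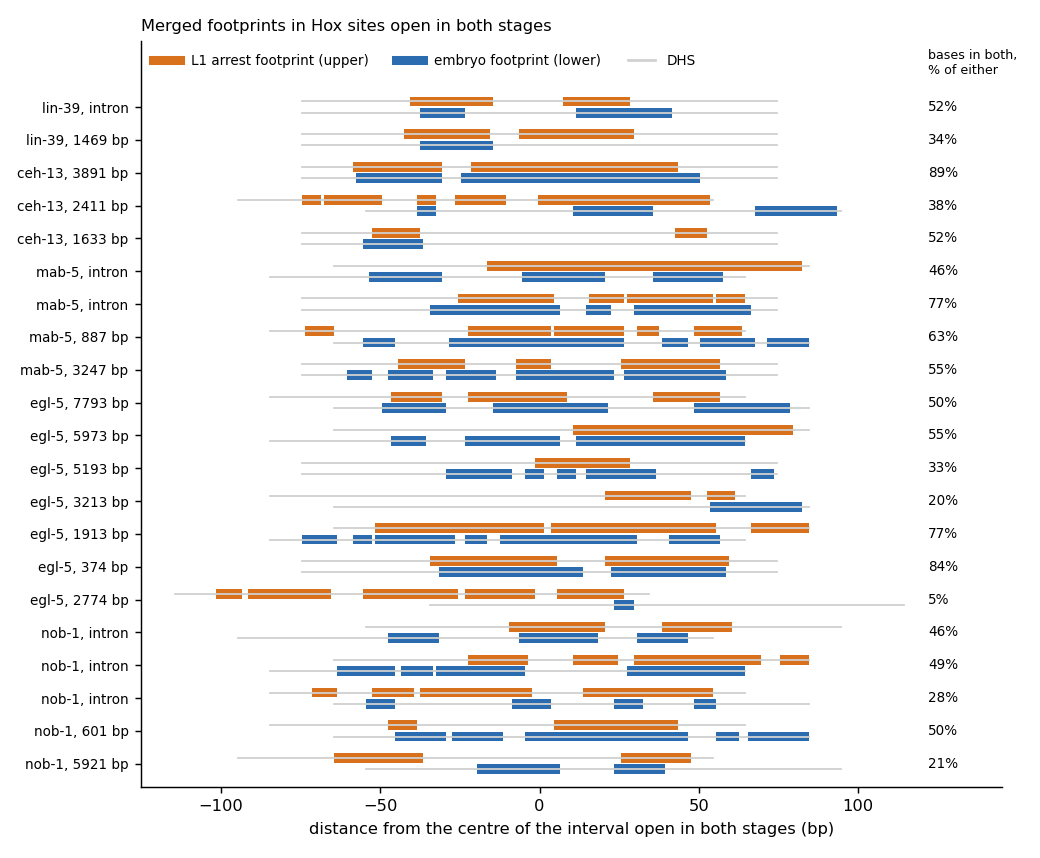
Merged footprints (coloured bars) in shared Hox sites, by position along the site (bp), with the L1 arrest row above the embryo row for each site. The ceh-13 site with 89.3% of footprinted bases in common and the egl-5 site with 5.45% are the extremes of the 21 shared sites.

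Density along the chromosome differed between the gene pairs. The span of the lin-39 and ceh-13 sites was taken in each list, 24570 bp in L1 and 29210 bp in the embryo. It held 6 noncoding DHS in L1 and 16 in the embryo. The median gap between neighbours was 6250.0 bp in L1 and 1370.0 bp in the embryo. The span of mab-5 and egl-5, 40570 bp in L1 and 41510 bp in the embryo, held 13 in L1 and 29 in the embryo. Median gaps there were 2230.0 bp in L1 and 1090.0 bp in the embryo. The span of php-3 and nob-1, 10790 bp in L1 and 12874 bp in the embryo, held 7 in L1 and 6 in the embryo. Median gaps there were 850.0 bp in L1 and 1930.0 bp in the embryo. Over the whole lists the median gap was 3190.0 bp in L1 and 1815.5 bp in the embryo. The median gap in the lin-39 and ceh-13 span was thus wider than the list median in L1 and narrower in the embryo. With 6 DHS in L1 it rests on few gaps, not all of them wide. Differences in density between the pairs were not tested.

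Some sites between the Hox genes were assigned to other genes. Between mab-5 and egl-5, sites assigned to cyk-7 numbered 2 in L1, both shared, and 11 in the embryo, of which 2 were shared. One of the shared sites, III:7803281-7803430, lay 7872 bp from cyk-7 and had a score of 391 in L1 (percentile 86.4) and 699 in the embryo (94.7). Between lin-39 and ceh-13, the microRNA gene mir-231 had 1 site in L1 and 2 in the embryo, of which 1 was shared. Whether any of these sites acts on a Hox gene was not tested. Exonic DHS with a Hox site as their nearest assigned neighbour numbered 4 in L1, each overlapping an embryo one, and 6 in the embryo. The strongest of them lay next to mab-5, with a score of 359 in L1 (III:7783241-7783390) and 532 in the embryo (III:7783281-7783430).

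In each of 5 lists of genes that act with, upstream or downstream of the Hox genes, the summed number of DHS was lower in L1 than in the embryo, as it was over all genes. L1 entries made up 46.2% of the L1 and embryo entries together for the cofactors, 39.7% for the chromatin regulators, 42.9% for the Wnt genes, 38.1% for the posterior homeobox genes and 43.8% for the targets, against 37.5% over all coding genes. The 4 Hox cofactors, the PBC and MEIS homeodomain proteins that bind DNA with Hox proteins, had 12 DHS in L1 and 14 in the embryo. Of these, unc-62, the MEIS homologue, had 10 in L1 and 12 in the embryo, 2 of its L1 sites being arrest-associated, while ceh-20 and ceh-40 had 1 in each list and ceh-60 had none. Fewer sites in L1 were listed for 1 of the 4 cofactors and equal numbers for 3. The 60.8% of coding genes with fewer sites in L1 counts only genes with a DHS.

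Of 13 chromatin regulators of Hox genes, 9 had fewer sites in L1 than in the embryo, 0 had more and 4 had equal numbers, with 25 sites in L1 and 38 in the embryo. Among those with equal numbers, mig-32 had no site in either list. Over all coding genes with a DHS, 60.8% had fewer in L1 and 7.13% had more. Whether this list or the Wnt list differs from those shares was not tested. The MTA-like egl-27 had 8 in L1 and 10 in the embryo, and utx-1, a histone lysine demethylase, had 3 in L1 and 5 in the embryo. The Trithorax group gene lin-59 had 3 in L1 and 4 in the embryo, and the Polycomb-like sop-2 had 3 in each list. The genes mes-2, mes-3 and mes-6, whose products form a Polycomb repressive complex, had 0 in L1 and 1 in the embryo each. Of 8 Wnt genes upstream of Hox genes, 3 had fewer in L1, 1 had more and 4 had equal numbers, with 15 sites in L1 and 20 in the embryo. Here the genes with equal numbers included mig-5, which had no site in either list. The Frizzled gene lin-17 had 5 in L1 and 9 in the embryo, and mig-1, also a Frizzled gene, had 2 in L1 and 3 in the embryo. The TCF gene pop-1 had 4 in L1 and 3 in the embryo, the beta-catenin gene bar-1 had 2 in each, and the Wnt ligand gene egl-20 had 1 in each.

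Both posterior homeobox genes outside the cluster had fewer sites in L1: vab-7, the even-skipped homologue, had 6 in L1 and 9 in the embryo, and pal-1, the caudal homologue, had 2 in L1 and 4 in the embryo. Of 4 described Hox target genes, 3 had fewer in L1 and 1 had an equal number, with 14 sites in L1 and 18 in the embryo. Fewer in L1 was also the order for 60.8% of all coding genes with a DHS, and both lists here are small. The fusogen gene eff-1 had 5 in L1 and 7 in the embryo, and the Notch ligand gene lag-2 had 3 in L1 and 4 in the embryo. The cell death gene egl-1 had 2 in L1 and 3 in the embryo, and the mesodermal factor gene hlh-8 had 4 in each. None of the Hox genes was listed in the authors' table of genes near motifs of embryo DHS, which names 2184 genes under 57 motifs. Most of the 19971 coding genes are also absent from it, so this is no particular trait of the Hox genes.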

How the data were processed

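The authors called peaks with HOTSPOT version 3 in windows of 150 bp, filtered them at an IDR of 0.1 over replicates and merged them per stage, per the series design text. Noncoding parts were assigned by them to WS241 gene models, and footprints came from DNase2TF at an FDR of 0.05. FastQC, Bowtie 1.0.0, SAMtools and ce10 are named in the submitters' processing notes. Reads were of 50 or 76 bp, mixed within each stage, per the labels. The deposited score of peaks and of footprints is the authors', with a scale not given in the sources used here.

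Coordinates are in ce10 and count from 1. Stages were compared by overlap of at least 1 bp, and scores by percentile within a list, in Python 3.11.15 with NumPy 2.4.6, SciPy 1.17.1 and matplotlib 3.10.9. Footprints that overlap or adjoin were merged. Percentages of coding genes refer to 19971 nuclear genes of the WBcel235 gene table, used for names only. The overlap and merging steps were checked on simulated data. Exact 95% binomial intervals cover counting error only. No test between stages was made, since each stage has 1 merged list. The members and lists were chosen with earlier results of these data known. Named are the 6 genes, for each the 3 genes most like it by DHS and footprint numbers, neighbours on the chromosome and up to 4 genes per related list with the most DHS, with a few more added after their values were seen. Site sequences and motif matches were not analysed here, since no genome of that build was used.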

Additional observations from a re-analysis of the deposited data

How the results depend on the processing

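Of 48 recomputed values for the 6 genes together, 42 stayed close to the reported ones, meaning a count within 1.5 times, a share within its 95% interval, and a median or mean within 1 SD over the sites. Some of these values could not move. No Hox entry was assigned to a second gene, no Hox footprint had a score of minus infinity, and cutting the embryo list leaves L1 counts unchanged. Entries at or above the median score of their list numbered 16 in L1 and 24 in the embryo. Without lin-39 and ceh-13, an alternative chosen after seeing the data, 18 L1 and 24 embryo entries remained. In that setting 66.7% of the embryo entries were shared, against 55.3% for all 6 genes. The embryo median percentile was 69.2, against 58.3. Both of these values counted as close, because the limits are wide with so few sites. A value that stayed close may therefore still have shifted. When the embryo list was cut, by score, to as many entries as L1 has, 82.6% of L1 and 73.1% of 26 embryo Hox entries were shared, and 76% over the whole list in each direction. Among entries of at least 150 bp, 100% of 22 in L1 and 91.4% of 35 in the embryo held a footprint. The whole-list share at that width was not set beside these, so they are no result about Hox sites. With exact repeats removed but footprints otherwise kept apart, a Hox DHS held 6.96 footprints in L1 and 5.74 in the embryo, without a whole-list value beside them. For single genes, 42 of 48 counts stayed within 1.5 times, with counts that could not move again among them. In that shorter embryo list lin-39 had 3 sites and mab-5 had 4, as many as mab-5 had in L1. A gap of up to 150 bp counted as shared gave 95.7% in L1, since it added the intronic nob-1 site, with no whole-list share beside it.

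No paired analysis was possible because the replicate letters differ between the stages and the lists are merged over replicates. For the same reason no replicate was left out in turn. Stage, hatching, feeding state and cell makeup cannot be told apart. The number of reads behind a site, and so the effect of depth on the shorter L1 list, is unknown.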

Other observations

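The genes most like each Hox gene in their numbers were found by the distance of log2(number + 1) over 4 counts, the DHS and merged footprints in each of the 2 stage lists. For lin-39 they were cut-4 and frm-9 (distance 0.34 each) and dmsr-2 (0.35). For ceh-13 they were ent-3 (0.12), acl-12 (0.14) and tat-3 (0.15), and for mab-5 eif-3.I (0.08), nars-2 (0.11) and rgs-6 (0.13). For egl-5 they were akap-1 (0.17), tlk-1 (0.20) and shn-1 (0.21), each with 7 DHS in L1 and 12 in the embryo. For nob-1 they were dlk-1 (0.25), ssu-1 (0.26) and gck-3 (0.42), and dlk-1 and ssu-1 each had 6 DHS in L1 and 5 in the embryo. For php-3, 303 genes had the same 4 counts, with abch-1, abu-2 and acox-1 first in the alphabet. No Hox gene was among the genes most like another Hox gene.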
